A study of Mus musculus with 384 samples.

Results

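Tigit, Cd96, Cd226 and Crtam encode 4 receptors of T cells and natural killer cells whose ligands are nectins and nectin-like adhesion molecules. The 4 genes were taken by name from a table of 23420 gene symbols, and all 4 were found. Their levels were read in single T cells from B16F10 tumours, a transplantable melanoma of C57BL/6 mice, grown in wild-type mice or in mice labelled as knockout for Il27ra, the gene for the specific chain of the receptor for the cytokine IL-27. The titles name 4 plates, a CD8 and a CD4 plate for each of the sources WT4 and KO4, and on each plate 94 wells held single cells, 1 held a population of cells and 1 held none. The treatment label names CD8+ cells alone, so the cell type was taken from the titles. The sources WT4 and KO4 were taken to be 1 per genotype, so genotype, animal and plate cannot be told apart. All mice shared the strain and the tumour line, with the age of the mice and the knockout allele not given in the sources used here. Below, KO-labelled means labelled as Il27ra knockout.

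Of these receptors, TIGIT, CD226 and CD96 compete for shared ligands. TIGIT, an inhibitory receptor, and CD226, also called DNAM-1, an activating receptor, both bind CD155, the product of Pvr, and CD112, the product of Nectin2, and TIGIT binds CD155 more tightly. CD96 also binds CD155 and has been described with inhibitory and with activating roles. CRTAM binds the nectin-like molecule encoded by Cadm1 and is known for its short-lived appearance on activated CD8 T cells and natural killer cells. In tumours the ligands are typically carried by tumour cells and myeloid cells, which were not sorted here.

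Promoter sequences were looked up because the study is about a cytokine that signals through STAT factors, and because several transcription factors measured in the same cells have short known motifs. Tigit lies on chromosome 16, 43648867 to 43664146, and Cd96 on chromosome 16, 46035657 to 46120251, both on the minus strand of GRCm38. The RefSeq table (GRCm38.p6) held a promoter for 2 of the 4 genes, these 2. The stretches upstream of the annotated start are chr16:43664185-43664434 for Tigit and chr16:46120252-46120498 for Cd96, given 5′ to 3′ on the minus strand, with every match to the searched motifs in capitals.
Tigit: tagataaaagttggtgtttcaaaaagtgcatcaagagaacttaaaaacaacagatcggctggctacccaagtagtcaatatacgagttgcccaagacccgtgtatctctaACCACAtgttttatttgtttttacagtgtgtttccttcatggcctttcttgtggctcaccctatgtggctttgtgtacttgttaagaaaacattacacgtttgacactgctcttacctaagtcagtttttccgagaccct
Cd96: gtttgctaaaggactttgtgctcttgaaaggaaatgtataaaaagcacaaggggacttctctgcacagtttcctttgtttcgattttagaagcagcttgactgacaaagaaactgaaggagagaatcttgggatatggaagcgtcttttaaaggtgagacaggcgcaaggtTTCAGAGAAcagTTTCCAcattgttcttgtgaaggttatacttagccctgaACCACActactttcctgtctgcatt
The motifs searched on both strands were TTCNNNGAA for STAT factors, TGANTCA for AP-1, TGGAAA for NFAT, CTTTGA for TCF and TGTGGT for RUNX. The Tigit stretch held 1 match, the RUNX letters ACCACA. The Cd96 stretch held 3 matches, TTCAGAGAA of the STAT motif, TTTCCA of the NFAT motif and the RUNX letters ACCACA, and none of these overlapped another. Among 32851 promoter windows of 250 bases, the STAT letters were in 7.02%, AP-1 in 6.75%, NFAT in 18.6%, TCF in 13.8% and RUNX in 14%. A match describes the letters only.

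A cell was kept with at least 1000 genes at 1 FPKM or more (a level scaled for transcript length and for library size), which left 72 of 94 wild-type CD8 cells, 77 of 94 KO-labelled CD8 cells, 74 of 94 wild-type CD4 cells and 78 of 94 KO-labelled CD4 cells. Depth in reads is unknown, since the values are FPKM. The median number of detected genes per kept cell lay between 2047 and 2530.5, highest in the wild-type CD8 plate. Cd4 and Cd8a followed the titles. Cd4 was in 89.2% and 91% of CD4 cells but 0 of 72 and 1 of 77 CD8 cells. Cd8a was in 84.7% and 81.8% of CD8 cells against 2.7% and 0.0% on the CD4 plates. Cd8b1 was less exclusive, since Cd8a or Cd8b1 was in 94.4% and 92.2% of CD8 cells but also in 25.7% and 23.1% of CD4 cells. Their summed level had a median of 0 on both CD4 plates. Its maximum was 709.3 FPKM in wild-type and 4.79 FPKM in KO-labelled CD4 cells. The no-cell wells listed all 4 receptor genes at 0. Il27ra itself was listed at 155.37 and 92.93 FPKM in the CD8 population libraries and at 244.63 and 133.37 FPKM in the CD4 ones, wild type first, and at 1 FPKM or more in 51.4%, 57.1%, 36.5% and 47.4% of single cells in the order wild-type CD8, KO-labelled CD8, wild-type CD4 and KO-labelled CD4. Since the deleted part of the gene is not given, these values do not check the genotype labels.

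In FPKM, Tigit had the highest mean level of the 4 receptors on every plate and the widest spread between cells. As log2(FPKM + 1) this did not hold in KO-labelled CD8 cells. There Cd96 had a mean of 4.12 (SD over cells 4.32) and Tigit 3.82 (4.29). In wild-type CD8 cells its level ran from 0 to 3524.1 FPKM with a median of 260.5, and in KO-labelled CD8 cells from 0 to 4023.2 FPKM with a median of 2.36. In wild-type CD4 cells it ran from 0 to 6225.1 FPKM with a median of 2.005, and in KO-labelled CD4 cells from 0 to 2335.6 FPKM with a median of 4.07. The ranges overlapped almost completely, and the plates differed in how many cells were high. The mean level was 694 FPKM (SD over cells 930.8, n = 72), 324.8 (674.2, n = 77), 690.3 (1399.8, n = 74) and 427.4 (643.9, n = 78) in the same order of plates.

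Tigit was detected, at 1 FPKM or more, in 80.6% of wild-type CD8 cells (exact 95% interval 69.5–88.9), 64.1% of KO-labelled CD4 cells (52.4–74.7), 62.2% of wild-type CD4 cells (50.1–73.2) and 58.4% of KO-labelled CD8 cells (46.6–69.6). Each neighbour in this order overlapped the next within counting error. These intervals hold counting error alone, without any spread between animals. The population libraries listed Tigit at 1617.01 and 929.04 FPKM for wild-type and KO-labelled CD8 cells and at 1528.68 and 1430.83 FPKM for the CD4 cells. In such libraries fewer cells with the gene and less RNA per cell cannot be told apart.

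Many of the Tigit detections were very low. Among detected cells, 27.6% of wild-type CD8, 37.8% of KO-labelled CD8, 39.1% of wild-type CD4 and 32% of KO-labelled CD4 cells had less than 20 FPKM, with medians of 3.42, 2.55, 2.005 and 2.87 FPKM within that range. The other detected cells had medians of 1021.8, 621.2, 999.5 and 823 FPKM. Tigit reached 1, 5 and 20 FPKM in 58, 48 and 42 wild-type CD8 cells and in 45, 31 and 28 KO-labelled CD8 cells. The range around 20 FPKM was not empty in wild-type CD8 cells, which included values of 12.49, 18.15, 20.26, 24.07, 42.27, 49.2 and 83.23 FPKM. On the other plates few cells lay in that range. For comparison, the median gene had 18.2%, 16.7%, 18% and 17.6% of its detections under 20 FPKM, which put Tigit at percentile 63.4, 76.3, 75.6 and 68.4 of all genes compared. Cd96, Cd226 and Crtam had between 0 and 13.6% of theirs there. Wells that missed the gene minimum also listed Tigit at 1 FPKM or more, in 8 of 22, 4 of 17, 4 of 20 and 4 of 16 wells. Cd96 was in none of them. Cd226 was in 1 of the 17 KO-labelled CD8 wells and 1 of the 20 wild-type CD4 wells, and Crtam in 1 of the 17. With 20 FPKM as the threshold, chosen after the low values had been seen, the Tigit shares in the same plate order were 58.3% (46.1–69.8), 36.4% (25.7–48.1), 37.8% (26.8–49.9) and 43.6% (32.4–55.3).

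**Figure D1:**
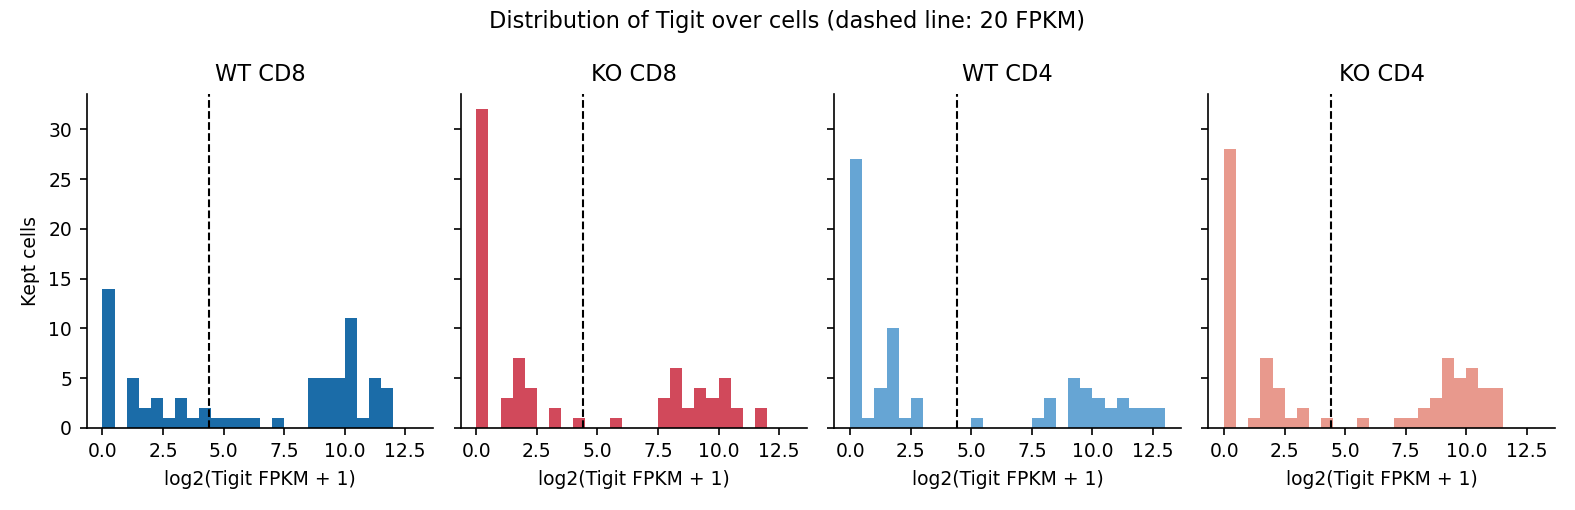
Number of kept cells by log2(Tigit FPKM + 1) on each plate, in bins of equal width, with a dashed line at 20 FPKM. Each plate shows cells at 0 and detected cells on both sides of the line. Those under 20 FPKM had medians between 2.005 and 3.42 FPKM, and the others had medians between 621.2 and 1021.8 FPKM.

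Cd96 was present in fewer cells, and mostly at levels well above the detection threshold. Its level ran from 0 to 1049.5 FPKM in wild-type CD8 cells (median 0), to 1433.4 in KO-labelled CD8 cells (median 2.27), to 1639.6 in wild-type CD4 cells (median 0) and to 1237.4 in KO-labelled CD4 cells (median 0). The gene was detected in 50.6% of KO-labelled CD8 cells (39–62.2) and 43.1% of wild-type CD8 cells (31.4–55.3), and in 24.4% of KO-labelled CD4 cells (15.3–35.4) and 24.3% of wild-type CD4 cells (15.1–35.7). Neighbours in this order overlapped, and the KO-labelled CD8 interval lay above both CD4 intervals. In detected cells alone the order was the other way round between cell types, with medians of 250.5 and 397.5 FPKM in CD8 and 426.5 and 571.3 FPKM in CD4, wild type first, so the lower CD4 shares did not come with lower levels per detected cell. The population libraries listed 267.18 and 298.86 FPKM in CD8 and 131.57 and 201.99 FPKM in CD4.

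Cd226, the activating counterpart of Tigit, lies on chromosome 18, 89176967 to 89272229, on the plus strand of GRCm38. Its level ran from 0 to 724.3 FPKM in wild-type CD8 cells (median 0), to 576.8 in KO-labelled CD8 cells (median 17.69), to 571 in wild-type CD4 cells (median 0) and to 1061.7 in KO-labelled CD4 cells (median 0). It was detected in 51.9% of KO-labelled CD8 cells (40.3–63.5), 43.1% of wild-type CD8 cells (31.4–55.3), 28.2% of KO-labelled CD4 cells (18.6–39.5) and 25.7% of wild-type CD4 cells (16.2–37.2). This is the same order as for Cd96, and again only the KO-labelled CD8 interval cleared both CD4 intervals. Medians in detected cells were close to each other, between 173.9 and 214.5 FPKM on the 4 plates. The population libraries listed 110.69 and 183.47 FPKM in CD8 and 76.98 and 81.83 FPKM in CD4.

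Crtam was the rarest receptor, and among single cells it was detected on the CD8 plates alone. It lies on chromosome 9, 40969691 to 41004628, on the minus strand of GRCm38. It was detected in 21 of 77 KO-labelled CD8 cells, 27.3% (17.7–38.6), and in 4 of 72 wild-type CD8 cells, 5.6% (1.5–13.6), and these intervals did not overlap. Detected levels ran from 45.17 to 1399.5 FPKM with a median of 387.9 in the former. The 4 wild-type cells had 78.31, 143.26, 292.65 and 557.33 FPKM, so no detection was a low value on either plate. In CD4 cells it was found in 0 of 74 wild-type cells, which allows a share of up to 4.1% (3 cells of the total; the exact 95% interval ends at 4.9%), and in 0 of 78 KO-labelled cells, which allows up to 3.8% (the exact interval ends at 4.6%). The population libraries had the same order, at 291.91 FPKM for KO-labelled CD8 cells, 90.49 for wild-type CD8 cells, 7.57 for KO-labelled CD4 cells and a listed 0 for wild-type CD4 cells.

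**Figure D2:**
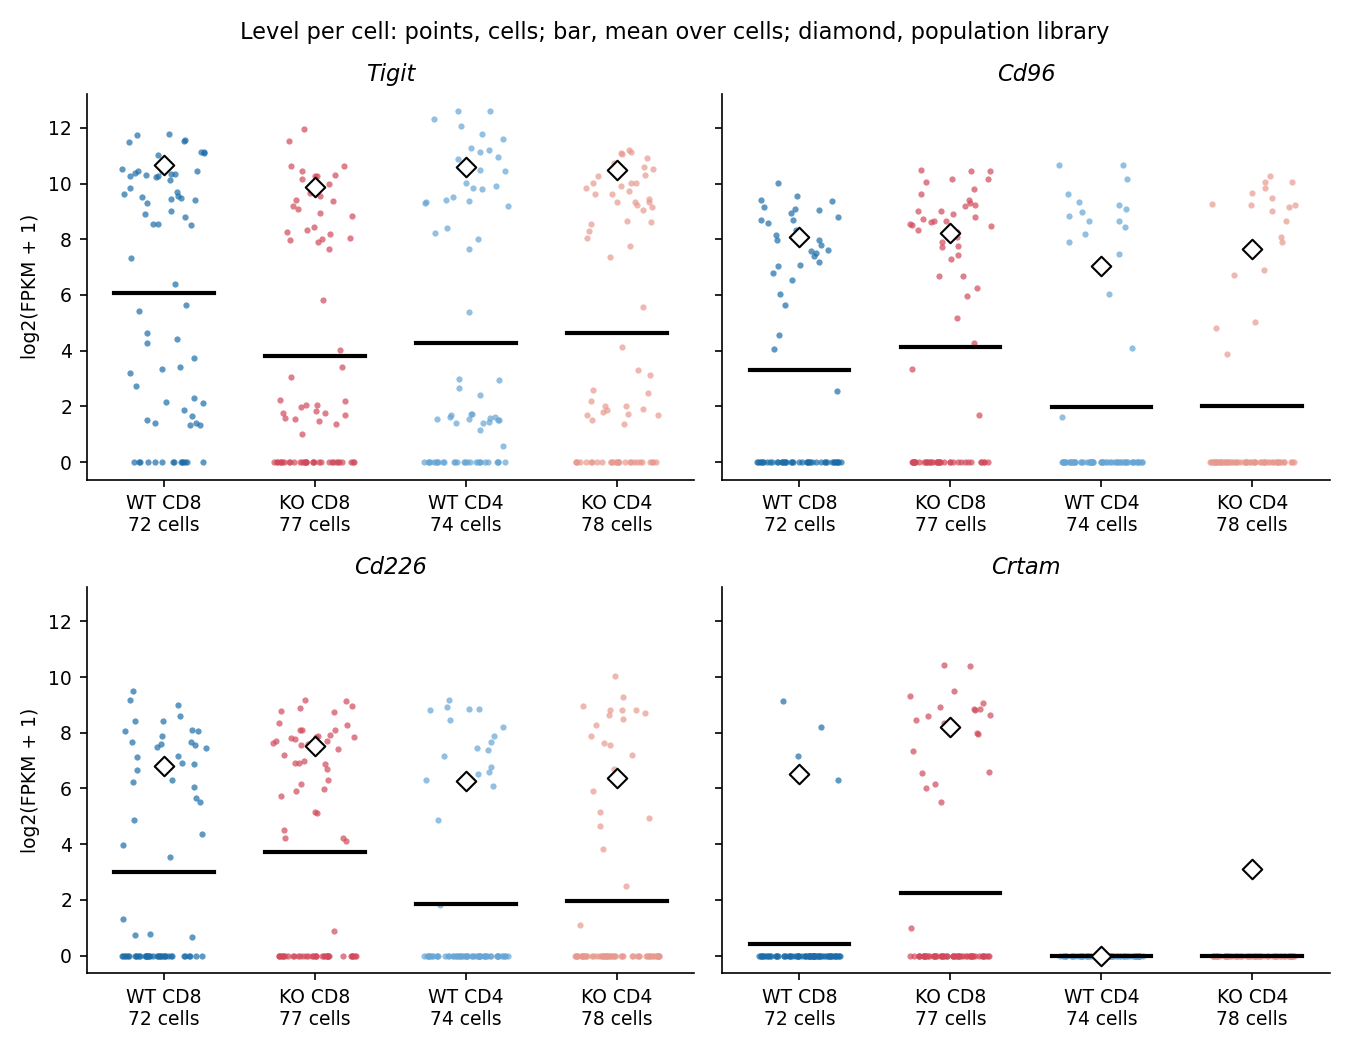
Level of each receptor gene as log2(FPKM + 1) on the 4 plates, with 1 point per kept cell, a bar at the mean over cells and a diamond at the population library. Tigit has cells at 0, at low values and near the population value, whereas Crtam reaches 1 FPKM in 21 of 77 KO-labelled CD8 cells, in 4 of 72 wild-type CD8 cells and in no CD4 cell.

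**Figure D3:**
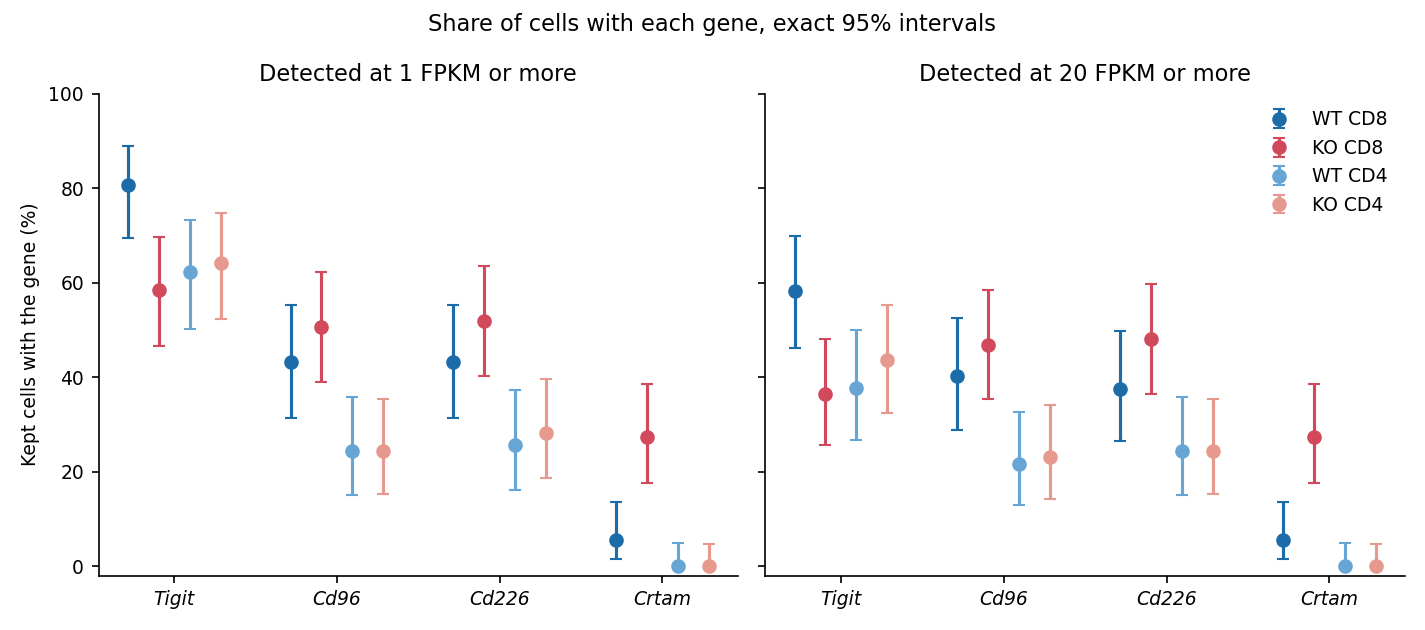
Share of kept cells in percent with each gene at 1 FPKM or more (left) and at 20 FPKM or more (right), by plate, with exact 95% intervals. Raising the threshold lowers the Tigit shares, from 80.6% to 58.3% in wild-type CD8 cells, and leaves the Crtam shares of 5.6% and 27.3% as they were.

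The comparison of genotypes addresses how these receptors differ between tumour T cells of wild-type mice and of mice labelled Il27ra knockout. In CD8 cells the members differed in opposite directions. The mean of log2(FPKM + 1) over cells of Tigit was 6.06 in the wild-type plate and 3.82 in the KO-labelled plate, a difference of -2.24, and only 21 of 8117 genes had a lower one. For Cd96 the means were 3.29 and 4.12, a difference of 0.83, and for Cd226 2.99 and 3.73, a difference of 0.74. For Crtam they were 0.43 and 2.25, a difference of 1.82. With 1 plate per genotype these values have no replicate check and no test.

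Over all 8117 genes in CD8 the median difference was -0.22, and 9.19% of genes were lower by 1 log2 or more and 2.07% higher. All 4 receptors were detected in at least 10% of cells of either plate, the filter for this comparison, and of the 3 that reached it on both plates 1, Tigit, was past that size. Crtam passed only through the KO-labelled plate, so its direction among the filtered genes was given by the filter and is not counted. The population libraries differed in the same directions, by -0.80 for Tigit, 0.16 for Cd96, 0.72 for Cd226 and 1.68 for Crtam on the same log2 scale, against a median of 0.02 over all genes.

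The wild-type CD8 plate was deeper in detected genes, and the Tigit share moved with that number. In the wild-type CD8 cells above the plate's median (median 3470 genes), 86.1% had Tigit at 20 FPKM or more, against 30.6% of those below it (2071 genes). In the KO-labelled CD8 cells the shares were 47.4% (2652 genes) and 25.6% (1958 genes). For Crtam the shares were 5.6% and 5.6% in the wild-type plate and 28.9% and 25.6% in the KO-labelled plate, upper group first. Among 53 cells of each CD8 plate matched on detected genes, with medians of 2428 and 2488, the Tigit difference was -1.24, and Cd96 and Cd226 went past 1 log2, at 1.73 and 1.31. In these matched cells Tigit at 20 FPKM or more was in 52.8% of wild-type cells (38.6–66.7) and 43.4% of KO-labelled cells (29.8–57.7). Crtam was in 7.5% (2.1–18.2) and 26.4% (15.3–40.3) of them, and both pairs of intervals overlapped.

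RNA of other cell types was also uneven between the CD8 plates. The summed level of 5 melanoma markers ran from 2.28 to 14138.9 FPKM in wild-type cells (mean 447.4) and from 0 to 1034.0 FPKM in KO-labelled cells (mean 27.17). Tyr, 1 of the 5, was listed at low values in nearly every cell. The summed level of 5 myeloid markers ran from 0 to 7330.3 FPKM in wild-type and from 0 to 1910.9 FPKM in KO-labelled CD8 cells, with any of them in 16.7% and 15.6%, and Csf1r, Cd14 and Emr1 were in none of the KO-labelled CD8 cells. The stromal markers Pecam1 and Col1a1 leaned the other way, with either in 16.7% of wild-type and 20.8% of KO-labelled CD8 cells, and Col1a1 was in none of the wild-type ones. Of the natural killer cell markers, Ncr1 was detected in no kept cell, and Klrb1c or Ncr1 together in 8.3% and 9.1% of CD8 cells. A narrower set of Dct, Mlana, Pmel, Lyz2, Csf1r, Cd79a, Ncr1, Col1a1 and Cd4 marked 25% of wild-type and 15.6% of KO-labelled CD8 cells, which leaves cells with Pecam1, Klrb1c or other listed markers in place. Without the marked cells the CD8 differences were -2.90 for Tigit, 0.31 for Cd96, 0.44 for Cd226 and 1.65 for Crtam.

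In CD4 cells none of the 3 receptors compared was past 1 log2 between genotypes. The means of log2(FPKM + 1) were 4.27 and 4.62 for Tigit, a difference of 0.35, 1.99 and 2.02 for Cd96, a difference of 0.02, and 1.86 and 1.97 for Cd226, a difference of 0.11. Over the 7063 genes compared in CD4 the median was -0.04, with 2.51% of genes lower and 2.53% higher by 1 log2 or more. The CD4 population libraries differed by -0.10 for Tigit, 0.61 for Cd96 and 0.09 for Cd226. Crtam was listed at 0 in every kept CD4 cell and was not compared. The arithmetic means of Tigit differed by -0.69 log2, opposite in sign to the mean of logs, and the highest wild-type CD4 cell had 6225.1 FPKM against 2335.6 for the highest KO-labelled cell. The Tigit difference was also below 0, at -0.09, in cells with at least 2000 genes.

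**Figure D4:**
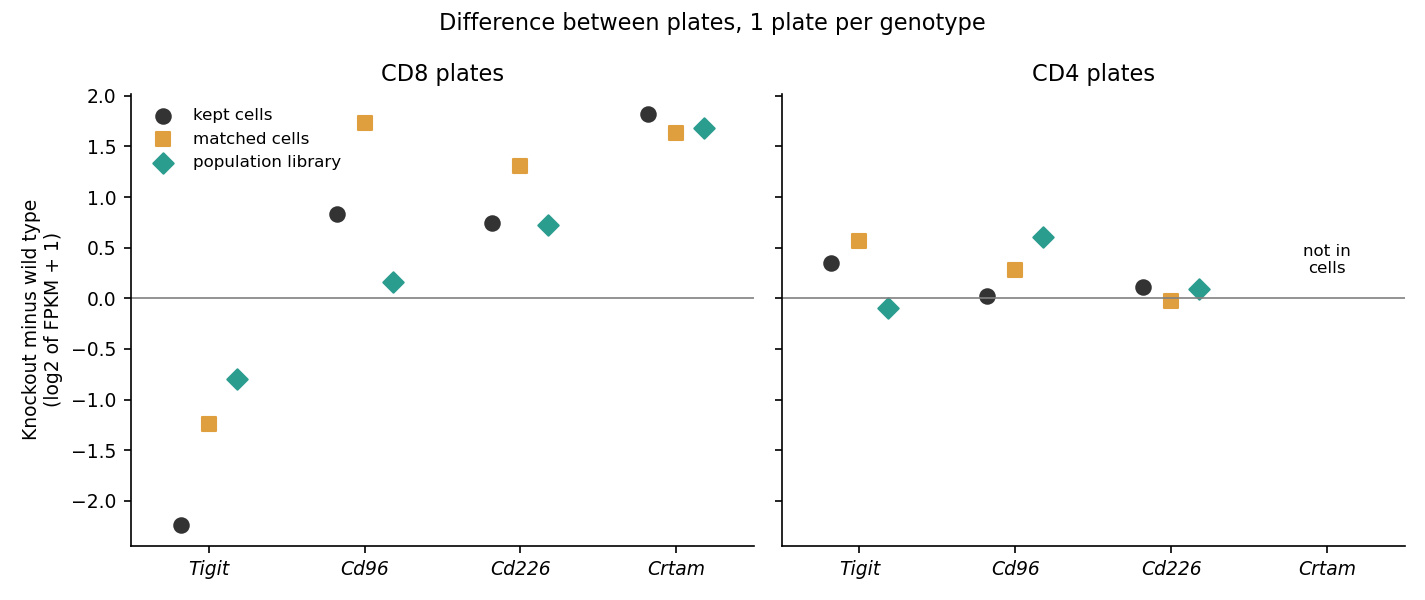
Difference between the KO-labelled plate and the wild-type plate in log2(FPKM + 1) for each receptor, in CD8 (left) and CD4 (right), for all kept cells, for cells matched on detected genes and for the population library. In CD8, Tigit lies below 0 and the other receptors above 0 in all of these values, and the size for Tigit falls from -2.24 to -1.24 with matched cells and -0.80 in the population libraries; Crtam in CD4 is not drawn.

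The cell types were compared by limma over the 4 plate means, with genotype as a term. Cd96 and Cd226 were lower in CD4 cells, and Tigit did not pass. The CD4 minus CD8 difference of mean log2 values was -1.70 for Cd96 (SE 0.47, limma adjusted p = 0.0115) and -1.44 for Cd226 (SE 0.46, limma adjusted p = 0.0311). For Cd96 it was -1.30 between the wild-type plates and -2.10 between the KO-labelled plates, and for Cd226 -1.13 and -1.76, so both pairs of plates showed the direction. For Crtam it was -1.34, made of -0.43 and -2.25. Crtam is listed at 0 in the CD4 cells and passed the gene filter only through the KO-labelled CD8 plate, so its direction was given by the filter, and the value is a difference of means of logs with no call and no fold change. For Tigit the difference was -0.50 (SE 0.57, limma adjusted p = 0.662), with opposite signs in the wild-type plates, -1.80, and in the KO-labelled plates, 0.80.

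Of 8427 genes tested in that fit, 6.32% were lower and 1.12% higher in CD4 cells, and the median difference was -0.27. Of the 3 receptors that passed the filter on every plate, 2 were lower. With 1 residual degree of freedom, the spread in this fit is pooled over all genes, and neither a single gene's spread nor that between mice enters the p-values. The call for Cd96 ended without Foxp3-positive CD4 cells (-0.92, limma adjusted p = 0.365), that for Cd226 likewise (-1.06, limma adjusted p = 0.244), and both ended without the genotype term (limma adjusted p = 0.114 and 0.136). Both CD4 plates had fewer detected genes per cell, with medians of 2047 and 2091 against 2530.5 and 2243 on the CD8 plates. In cells with at least 2000 genes both calls ended, Cd96 first, at -1.92 and -1.42 (limma adjusted p = 0.257 and 0.293). In the population libraries both also ended, at -0.79 and -0.84 (limma adjusted p = 0.395 and 0.436). The part of detected gene numbers in the calls was not tested. Leaving out 1 plate also took away the genotype term, so a lost call there cannot be put down to the plate. The Cd96 call was then lost without the KO-labelled CD8 plate (-1.29), the wild-type CD4 plate (-1.69) or the KO-labelled CD4 plate (-1.71), and the Cd226 call without any one of the 4 (-1.81 to -1.08). Tigit turned to 0.62 without the wild-type CD8 plate.

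Foxp3, the transcription factor that defines regulatory T cells, split the CD4 cells by their receptors, where positive means at 1 FPKM or more. Tigit at 20 FPKM or more was in 55.6% of 27 Foxp3-positive wild-type CD4 cells (35.3–74.5) and 27.7% of 47 Foxp3-negative ones (15.6–42.6). In the KO-labelled plate it was in 62.2% of 37 positive cells (44.8–77.5) and 26.8% of 41 negative ones (14.2–42.9). At 1 FPKM the Tigit shares were 81.5% (61.9–93.7) and 51.1% (36.1–65.9) in wild type and 75.7% (58.8–88.2) and 53.7% (37.4–69.3) in the KO-labelled plate. On both plates and at both thresholds the Foxp3-positive cells had the higher Tigit share, but the intervals were apart only in the KO-labelled plate at 20 FPKM. Cd96 went the other way at 20 FPKM, at 14.8% (4.2–33.7) of positive against 25.5% (13.9–40.3) of negative wild-type cells and 8.1% (1.7–21.9) against 36.6% (22.1–53.1) in the KO-labelled plate, and at 1 FPKM the shares of negative cells were 29.8% and 39%. The Cd96 intervals overlapped in wild type and were apart in the KO-labelled plate at both thresholds. Cd226 at 20 FPKM was in 11.1% (2.4–29.2) of positive and 31.9% (19.1–47.1) of negative wild-type cells, and in 21.6% (9.8–38.2) and 26.8% (14.2–42.9) in the KO-labelled plate. The cell groups had median detected gene numbers of 2316 and 1966 in wild type and 2076 and 2095 in the KO-labelled plate.

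Pdcd1, which encodes the inhibitory receptor PD-1, and Tcf7, which encodes a transcription factor of naive and stem-like T cells, split the CD8 cells into groups with different shares of high Tigit levels. Tigit at 20 FPKM or more was in 82.2% of 45 Pdcd1-positive wild-type cells (67.9–92) and 18.5% of 27 Pdcd1-negative ones (6.3–38.1), and in 60% of 25 (38.7–78.9) and 25% of 52 (14–38.9) of the KO-labelled cells. Among Tcf7-positive cells it was in 15.8% of 19 wild-type cells (3.4–39.6) and 25.5% of 47 KO-labelled cells (13.9–40.3), against 73.6% of 53 (59.7–84.7) and 53.3% of 30 (34.3–71.7) without Tcf7. For both splits the intervals were apart in the wild-type plate and overlapped in the KO-labelled plate. At 1 FPKM the contrasts were smaller and all intervals overlapped, with Tigit in 91.1% and 63% of Pdcd1-positive and Pdcd1-negative wild-type cells, 68% and 53.8% of KO-labelled ones, 68.4% and 84.9% of Tcf7-positive and Tcf7-negative wild-type cells and 48.9% and 73.3% of KO-labelled ones. The Pdcd1-positive cells also had more detected genes, with medians of 2944 against 2071 in wild type and 2531 against 2204.5 in the KO-labelled plate, and the part of this in the Tigit shares was not tested. By Tcf7 the medians were 2317 and 2592 in wild type and 2249 and 2243 in the KO-labelled plate, positive cells first. Pdcd1 itself was detected in 62.5% of wild-type and 32.5% of KO-labelled CD8 cells, and Tcf7 in 26.4% and 61%.

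Crtam was more frequent in the KO-labelled CD8 plate on either side of both splits. It was in 4.4% (0.5–15.1) of Pdcd1-positive wild-type cells and 28% (12.1–49.4) of KO-labelled ones, and in 7.4% (0.9–24.3) and 26.9% (15.6–41) of Pdcd1-negative cells. By Tcf7 the shares were 15.8% (3.4–39.6) and 25.5% (13.9–40.3) with it, and 1.9% (0.0–10.1) and 30% (14.7–49.4) without it. The intervals of the last pair did not overlap, and those of the other pairs did. Eomes, which encodes a transcription factor of effector and memory CD8 cells, was detected in 31.9% of wild-type and 11.7% of KO-labelled CD8 cells, the reverse of the Crtam order. Crtam was in 4.3% of 23 Eomes-positive wild-type cells (0.1–21.9) and 6.1% of 49 negative ones (1.3–16.9), and in 33.3% of 9 (7.5–70.1) and 26.5% of 68 (16.5–38.6) on the other plate.

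With detection at 1 FPKM, most pairs of receptors in the same cell were close to what their separate shares give. Tigit and Cd226 shared 34.7% of wild-type CD8 cells (23.9–46.9), and the product of their shares was 34.7%. The observed and product shares were 29.9% and 30.4% in KO-labelled CD8 cells, 14.9% and 16% in wild-type CD4 cells and 15.4% and 18.1% in KO-labelled CD4 cells. Their phi coefficients, a correlation of presence and absence over the cells of a plate, were 0.00, -0.02, -0.05 and -0.12. With detection at 20 FPKM these coefficients lay between -0.08 and 0.07. For Tigit and Cd96 phi was 0.07, 0.01, -0.08 and -0.01. At 20 FPKM this pair had phi 0.23 in wild-type CD8 cells, with 29.2% of cells (19–41.1) against a product of 23.5%. On the other plates its phi at 20 FPKM lay between -0.07 and 0.01. Cd96 and Cd226 had 25% of wild-type CD8 cells with both (15.5–36.6) against a product of 18.5%, with phi 0.26, and phi was 0.04, 0.10 and 0.18 on the other plates. At 20 FPKM they shared 23.6% of wild-type CD8 cells (14.4–35.1) against a product of 15.1%, with phi 0.36. In KO-labelled CD4 cells they shared 10.3% (4.5–19.2) against 5.6%, with phi 0.26. Phi at 20 FPKM was -0.02 in KO-labelled CD8 cells and 0.08 in wild-type CD4 cells. In wild-type CD8 cells, both of these genes were also more frequent in the cells with more detected genes, Cd96 at 63.9% and 22.2% and Cd226 at 55.6% and 30.6%, upper group first. For Crtam at 1 FPKM with Tigit, Cd96 and Cd226, phi was 0.12, 0.03 and 0.16 in wild-type CD8 cells. These values rest on 4 cells with Crtam. In KO-labelled CD8 cells they were -0.02, 0.08 and -0.11.

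**Figure D5:**
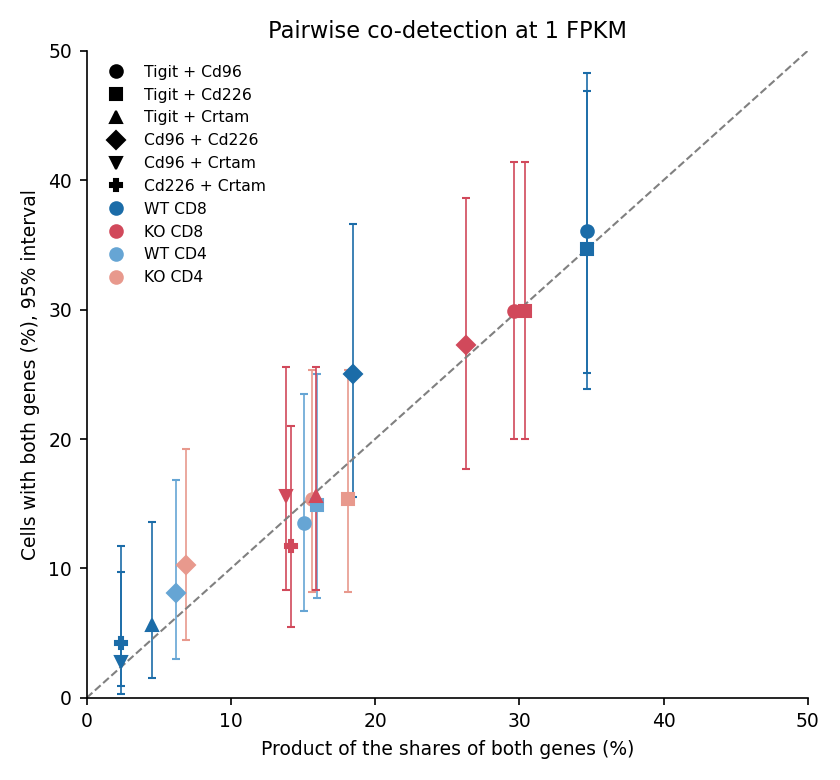
Share of kept cells with both genes of a pair at 1 FPKM or more, with exact 95% intervals, against the product of the shares of each gene, in percent, for each pair (symbol) and plate (colour); the dashed line marks equality and pairs at 0% are not drawn. All drawn intervals cross the line, and the widest gap upward is Cd96 with Cd226 in wild-type CD8 cells, 25% against 18.5%.

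Counted by the balance of the inhibitory Tigit and the activating Cd226, the shares differed between the CD8 plates, but with overlapping intervals. With detection at 1 FPKM, Tigit without Cd226 was in 45.8% of wild-type CD8 cells (34–58) and 28.6% of KO-labelled ones (18.8–40), and Cd226 without Tigit in 8.3% (3.1–17.3) and 22.1% (13.4–33). With detection at 20 FPKM the shares were 34.7% (23.9–46.9) and 18.2% (10.3–28.6) for Tigit without Cd226. For Cd226 without Tigit they were 13.9% (6.9–24.1) and 29.9% (20–41.4). So in KO-labelled CD8 cells the more frequent of these classes depended on the threshold. The part of detected gene numbers, higher in the wild-type CD8 plate, in these shares was not tested. In CD4 cells at 1 FPKM, Tigit without Cd226 was in 47.3% (35.6–59.3) and 48.7% (37.2–60.3), wild type first. Cd226 without Tigit was in 10.8% (4.8–20.2) and 12.8% (6.3–22.3). At 20 FPKM these CD4 shares were 28.4% (18.5–40.1) and 34.6% (24.2–46.2) for Tigit without Cd226. For Cd226 without Tigit they were 14.9% (7.7–25.0) and 15.4% (8.2–25.3). At least 2 of the 4 receptors at 1 FPKM were in 50% (38–62) and 62.3% (50.6–73.1) of CD8 cells, wild type first. On the CD4 plates they were in 25.7% (16.2–37.2) and 33.3% (23.1–44.9). At 20 FPKM the shares were 37.5% and 53.2% in CD8 cells and 17.6% and 21.8% in CD4 cells. All 4 were found in 2 cells of each CD8 plate and in no CD4 cell, at either threshold.

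Of the ligand side, 9 nectin and nectin-like genes were looked up and all were found. Pvrig, searched along with them but not a ligand gene, was not found. Only Pvr, which encodes CD155, passed the filter of detection in 10% of cells. Pvr was in 6.9% and 14.3% of CD8 cells and, on the CD4 plates, 9.5% and 14.1%, with differences between genotypes of 0.37 and 0.47. It passed only through the KO-labelled plates, so these directions were given by the filter. In the population libraries it was listed at 11.87 and 17.82 FPKM in CD8 and at 49.99 and 10.07 FPKM in CD4, a difference of -2.20 log2 in the latter, opposite in sign to the cells. The other 8 were each detected in at most 5.6% of the cells of any plate. In the CD4 minus CD8 fit Pvr differed by 0.19 (SE 0.26, limma adjusted p = 0.72).

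Of 15 signalling partners of these receptors, 14 passed the filter in each cell type. In CD8 1 was past 1 log2 between genotypes, Arrb2, which encodes a beta-arrestin, at -1.46, which is near the shares over all genes of 9.19% lower and 2.07% higher, and the list's median was -0.09 against -0.22 over all genes. In the population libraries Arrb2 differed by 0.31, the other way. In CD4 none was past that size and the median was 0.17 against -0.04. In the CD4 minus CD8 fit 1 of 14 passed, Ptpn6, which encodes the phosphatase SHP-1, at -2.59 (SE 0.53, limma adjusted p = 0.000176), a count near the 6.32% of all genes that were lower.

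Several transcription factors of T cell states and most of the other co-inhibitory genes were lower in the KO-labelled CD8 plate, as Tigit was. Of 9 such factors past the filter, 5 were lower and 1 higher by 1 log2 or more in the KO-labelled CD8 plate, with a median of -1.18 against -0.22 over all genes, of which 9.19% were lower and 2.07% higher. The widest were Tcf7 at 2.89, Tox, a factor of exhausted T cells, at -2.75, Prdm1, which encodes BLIMP-1, at -1.27 and Eomes at -1.20. Prdm1, 1 of the 5, was in 30.6% of wild-type and 6.5% of KO-labelled cells. It passed the filter only through the wild-type plate, so its direction was given by the filter and does not count. Maf, also among the 9, passed in the same way, at 12.5% and 9.1%, and the list's median includes both. In the population libraries Tcf7, Tox, Prdm1 and Eomes differed by 1.64, -1.45, -0.31 and -1.82, and Runx3, named after its values were seen, was at -1.18 in cells and 0.40 there. Of 5 other co-inhibitory genes 4 were lower, namely Pdcd1, Lag3, Havcr2 and Entpd1, with a median of -2.75, again against 9.19% of all genes. In the population libraries they differed by -0.82, -0.10, -1.87 and -2.38 in that order, so Lag3 differed little there. The wild-type CD8 plate had more detected genes per cell, and neither list was compared in cells matched on that number. In CD4 cells the factor list had a median of 0.43 against -0.04, with Tbx21 lower, at -1.0, and Irf4, Foxp3 and Batf higher, at 1.62, 1.28 and 1.07, against 2.51% of all genes lower and 2.53% higher. In the population libraries these differed by -0.20, 1.75, -0.01 and -0.20. None of the 5 co-inhibitory genes was past 1 log2 in CD4 cells, and their median was -0.20. In the CD4 minus CD8 fit, Foxp3 differed by 3.81 and Eomes by -1.18, but Foxp3 passed the filter only through the CD4 plates and Eomes only through the CD8 plates, so these directions were given by the filter. Of the other factors, Maf, a factor linked to IL-10 production, was higher by 2.18 (limma adjusted p = 2.08e-06) and Runx3, a factor of the CD8 lineage, was lower, at -2.20 (limma adjusted p = 0.000405), against 1.12% of all genes higher and 6.32% lower. Of the 5 co-inhibitory genes 3 were lower in CD4 cells, Pdcd1 at -2.48, Lag3 at -1.92 and Havcr2 at -1.27. Their list had a median of -1.27 against -0.27 over all genes, of which 6.32% were lower. The Lag3 value was made of -3.84 between the wild-type plates and -0.01 between the KO-labelled plates. For Havcr2 these were -2.55 and 0.00, so both came from the wild-type pair. For Pdcd1 they were -3.95 and -1.01.

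The genes whose levels followed each receptor most closely over cells differed from receptor to receptor. Correlations were taken within each plate over log2(FPKM + 1), after removing the linear effect of the number of detected genes, and averaged over the plates, for 3015 genes. They describe cells that share a plate and carry no test. For Tigit the closest were Ctla4 (mean r 0.35), Pdcd1 (0.35), Gimap7 (0.32), Tnfrsf9 (0.32) and Gzmb (0.31), of which Ctla4 and Pdcd1 encode co-inhibitory receptors, Tnfrsf9 the co-stimulatory receptor CD137 and Gzmb the protease granzyme B. These values were uneven between plates, since Ctla4 had 0.57 in wild-type CD8 cells and 0.06 in KO-labelled ones. For Cd96 the closest were Cxcr6 (0.21), Aim1 (0.21), Fam169b (0.20), Elmsan1 (0.19) and Cd44 (0.18), and for Cd226 Angel2 (0.23), Atp11b (0.23), Slc9a9 (0.23), Itgb1 (0.22) and Arhgap26 (0.22). For Crtam, over the CD8 plates only, they were Gatad2a (0.30), Irf2 (0.28), Il18rap (0.27), Irf9 (0.26) and Ddx21 (0.25). These means gave equal weight to the wild-type plate, where only 4 of 72 cells had Crtam. All 5 had the higher r there, 0.30 to 0.39 against 0.16 to 0.27 in KO-labelled CD8 cells. Between the receptors themselves the widest mean was 0.14, for Cd96 and Cd226, and Tigit had -0.10 with Cd226 and -0.03 with Cd96. The values for Cd96, Cd226 and Crtam are weak in data with this many zeros.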

How the data were processed

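Single T cells, population wells and no-cell wells were profiled by Smart-seq2, which has no molecular identifiers. The authors deposited FPKM values with TMM normalization, per the labels, made with Bowtie, RSEM and mm10 per the submitters' processing notes. Their versions were not given in the sources used here. Reads shared between genes are split by an estimate in RSEM. The values are FPKM alone, so depth is given as detected genes.

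The members and gene lists were chosen with earlier results of these data known. Genes named are the receptors, at most 4 a list with the widest difference, and the 5 closest genes of each receptor. Detection was 1 FPKM or more. Genotype differences are differences of plate means of log2(FPKM + 1) over kept cells, with no test. The CD4 minus CD8 comparison used limma 3.58.1 (R 4.3.3; lmFit, eBayes with trend, two-sided) on plate means of genes that reached detection in 10% or more of the cells of any plate, with Benjamini-Hochberg adjustment over 8427 genes and a threshold of 0.05, and the script was tested on simulated data. Intervals are exact Clopper-Pearson. No doublet caller was run. Alternatives covered the pseudocount, cell and gene filters, cells matched within 5% on detected genes, cells with other cell types' markers or Foxp3, population libraries, each plate left out and higher detection thresholds. Promoters came from RefSeq (GRCm38.p6) and gene positions from the GRCm38 annotation.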

Additional observations from a re-analysis of the deposited data

Results flagged for a closer look

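The Tigit difference between the plate labelled knockout and the wild-type plate had opposite signs in the cell types, at -2.24 log2 in CD8 cells and 0.35 log2 in CD4 cells, which drew attention to it. With 1 plate per genotype and cell type, the difference between the cell types was not tested. In the population libraries both were below 0, at -0.80 and -0.10. The CD4 value was also below 0, at -0.09, in cells with at least 2000 genes and, at -0.69, as a ratio of arithmetic means.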

How the results depend on the processing

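The KO-labelled minus wild-type differences in CD8 kept their signs under every alternative run. Tigit, at -2.24, was -1.24 in cells matched on detected genes, -2.90 without cells marked by the narrower set of other cell types' markers, -2.99 with a pseudocount of 0.1 FPKM, -1.10 as a log2 ratio of arithmetic means and -0.80 in the population libraries. Cd96, at 0.83, was 1.73 in matched cells, 0.31 without marked cells and 0.16 in the population libraries, and Cd226, at 0.74, was 1.31 in matched cells. Crtam, at 1.82, was 2.58 with the pseudocount of 0.1 FPKM and 2.97 with arithmetic means. In CD4, Tigit was -0.69 with arithmetic means, and Cd96 was 0.76 without Foxp3-positive cells and 0.61 in the population libraries. The small CD4 values of Cd96 and Cd226 changed sign in some settings, reaching -0.08 and -0.27.

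For CD4 minus CD8, Tigit reversed to 0.62 when the wild-type CD8 plate was left out and to 0.27 in the population wells; the cause was not tested. Calls that were lost kept their direction, and the causes were not tested. Cd96 missed the threshold with genes in at least 25% of cells (-1.70), with no genotype term (-1.70), with cells of at least 2000 genes (-1.92), without marked cells (-1.40), without Foxp3-positive cells (-0.92), in the population libraries (-0.79) and with values under 20 FPKM set to 0 (-1.66). In the same order Cd226 missed it at -1.44, -1.44, -1.42, -1.11, -1.06, -0.84 and -1.31. Crtam, whose direction the gene filter fixed, missed it with no genotype term (-1.34), with at least 2000 genes (-1.37), in the population libraries (-5.81) and with values under 20 FPKM set to 0 (-1.33). With each plate left out in turn, which also drops the genotype term and leaves a lone plate assumed to vary like the others, the values ran from -1.62 to 0.62 for Tigit, -2.11 to -1.29 for Cd96, -1.81 to -1.08 for Cd226 and -2.25 to -0.43 for Crtam.

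The 14 shares that moved beyond their interval all involved Tigit and a detection threshold of 5 or 20 FPKM. The setting without marked cells, the one with values under 20 FPKM set to 0 and the 20 FPKM detection threshold were added after the data were seen. The planned marker rule with Tyr left almost no cells and gave no value. The titles give each source on a CD8 and a CD4 plate, so the genotype term of the CD4 minus CD8 fit is also the pairing by source, and the values without it are those given with no genotype term.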
